A study of Arabidopsis thaliana with 9 samples.

Results

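The transcriptome of the decuple mutant jazD of Arabidopsis thaliana was compared with that of the quintuple mutant jazQ, which lacks fewer of the same repressor genes, so the comparison addressed what the 5 further JAZ mutations of jazD changed. The 6 libraries compared, jazD replicates 1 to 3 and jazQ replicates 1 to 3, were chosen by their labels and are 6 of the 9 in the series, the others being wild-type Col-0. The labels name the lines and not the genes, so the genotypes given here are background. Mutations in JAZ1, JAZ3, JAZ4 along with JAZ9 and JAZ10 are common to both lines. Only jazD is mutated in JAZ2, JAZ5, JAZ6 and also in JAZ7 and JAZ13. JAZ8, JAZ11 and JAZ12 are intact in both, and each group is 1 line. As accession the labels give Col-0 for jazQ and Col-0* for jazD, and the asterisk is not explained. Each library was RNA-seq of whole rosettes without roots, pooled from about 20 soil-grown plants aged 23 days, with days of 16 h light at 100 μE m-2 s-1, nights of 8 h and 20 °C throughout. Genotypes shared trays, per the labels' protocols.

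JAZ proteins bind transcription factors such as MYC2 and, with the adaptor NINJA and the co-repressor TOPLESS, keep their target genes silent. When the hormone jasmonoyl-isoleucine binds its receptor COI1, JAZ proteins are degraded and the factors are released. In leaves this pathway turns on chemical defences against insects and necrotrophic fungi, among them defensins, glucosinolates and vegetative storage proteins, and it restrains growth.

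Total counts per library ran from 15370271 to 20730459, and of the 33323 genes listed 19405 had enough counts to be tested. The first principal component, 64.1% of the variance, put the 3 jazD libraries at 57.9 to 59.3 and the jazQ libraries at -32.5 to -26.4, beside Col-0. Replicate 2 stood apart among the jazQ libraries. It was the highest jazQ library for 32 of 46 tested genes of JAZ repression, jasmonate synthesis and breakdown and early wounding, and jazD replicate 2 was the highest of its group for 27 of them. Calls lost or gained without jazQ replicate 2 are given below for the genes named by rule, as are larger shifts of list counts. Genes named after their values were seen are given with all libraries only. In whole rosettes, fewer cells of a type and less RNA per cell cannot be told apart.

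Over the whole transcriptome, jazD and jazQ differed at 28.8% of the genes tested. At an adjusted p under 0.05 (edgeR's quasi-likelihood test with Benjamini-Hochberg adjustment over all genes tested), 2918 genes were higher in jazD than in jazQ, which is 15.0% of those tested, and 2678 were lower, 13.8%. These shares of 15.0% higher and 13.8% lower are the background for each list count below. The lists were chosen with earlier results of these data known, and most named members by smallest p, so the list counts are a description. Large changes were mostly rises. At least 2-fold differences numbered 810 higher (4.17% of those tested) and 294 lower (1.52%), and at least 8-fold differences 149 higher and 35 lower. The median log2 fold change over all genes tested was -0.0053. The jazD and jazQ libraries did not overlap for 8573 of the genes tested, 44.2%, which is the background wherever absence of overlap is given below. By comparison, jazQ and Col-0 differed at 247 genes, 1.27%, in the same fit. That contrast shares the jazQ libraries with the present one, so its values stand beside these only as a description. The split between rises and falls depended on the scale: on log2(TPM + 1), without rescaling between libraries, 2333 genes were higher and 3397 lower, and on log2(TPM + 0.1) 2312 and 3411.

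**Figure D1:**
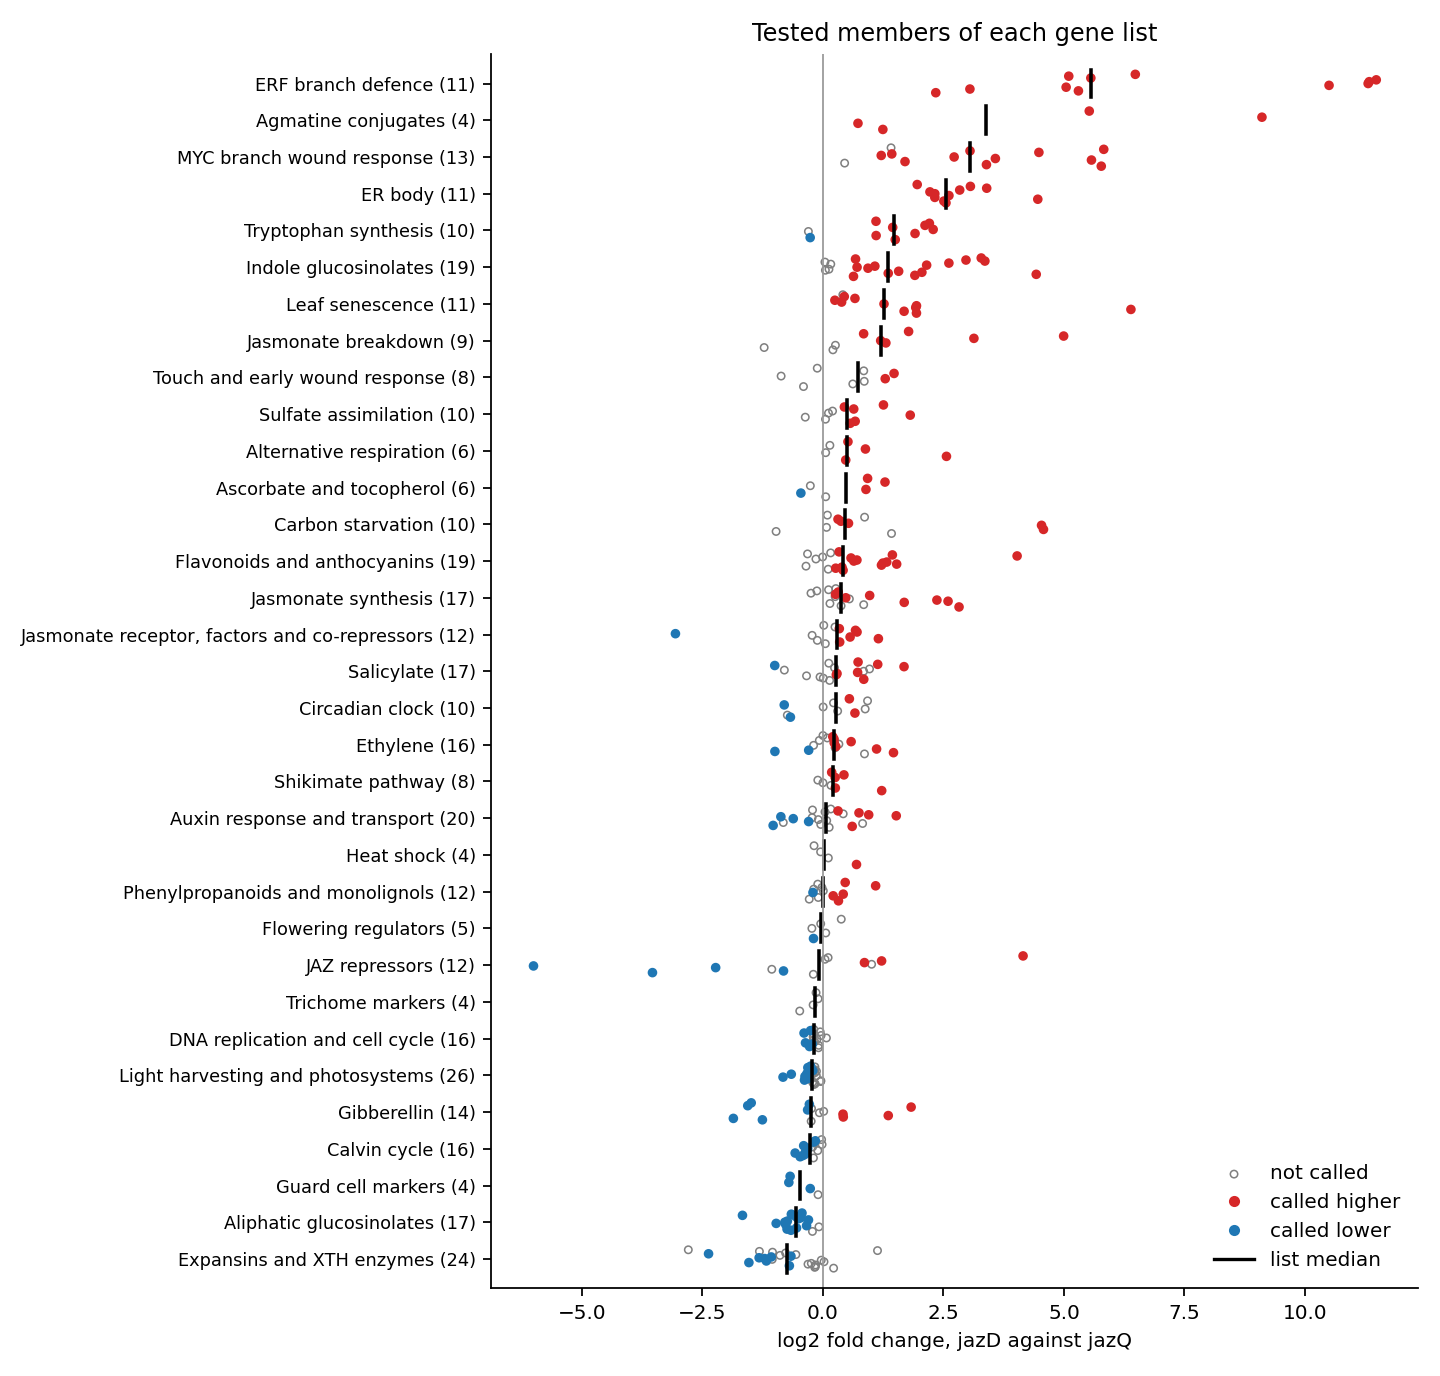
Log2 fold change, jazD against jazQ, of the tested members of each gene list with at least 4 of them (1 point per gene, number tested in brackets), with filled points for genes called higher (red) or lower (blue), open points for genes not called and black bars for list medians. The ERF branch list lies farthest to the right with a median of 5.56, and the expansin and XTH list farthest to the left with -0.73.

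Among the 13 JAZ genes, the transcripts of 4 fell, those of 3 rose and those of 5 were not called, while JAZ4, at 0.466, 0.059 and 0.0963 CPM in jazQ and 0.27, 0.117 and 0.113 CPM in jazD, had too few counts to be tested. Of the genes mutated in jazD alone, JAZ2 measured 29.7, 47.3 and 31.4 CPM in jazQ and 3.46, 2.63 and 3.22 CPM in jazD, and JAZ6 measured 57.5, 73.7 and 44.8 CPM in jazQ and 12.0, 11.9 and 13.7 CPM in jazD. The jazD libraries lay below all jazQ libraries for each gene, and the log2 fold changes were -3.54 ± 0.23 (SE; adjusted p = 4.94e-06) and -2.22 ± 0.18 (adjusted p = 3.32e-05). JAZ7 held 3 counts over the jazD libraries against 209 in jazQ, a ratio of 70.5 (95% counting interval 23.8 to 344), which covers counting error only. Its levels in jazQ, 2.46, 8.50 and 1.35 CPM, were highest in replicate 2, and its call (adjusted p = 0.0136) was lost in limma-voom (0.0685) and without jazD replicate 1 (0.0533). JAZ13 went the other way, with 0.466, 2.07 and 0.771 CPM in jazQ and 19.0, 20.4 and 19.8 CPM in jazD. Every jazD library exceeded every jazQ library for JAZ13, by a log2 fold change of 4.15 ± 0.28 (adjusted p = 2.47e-06). JAZ5 measured 5.52, 18.3 and 4.72 CPM in jazQ and 3.78, 6.32 and 3.56 CPM in jazD with overlapping groups, and was not called (adjusted p = 0.221). Counts cover the whole gene, so they do not show whether an intact transcript was made.

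Some of the genes mutated in both lines also differed. JAZ3 measured 54.5, 50.2 and 51.0 CPM in jazQ and 27.1, 32.4 and 28.9 CPM in jazD, above 14.8, 10.7 and 14.4 CPM in Col-0, and was lower in jazD than in jazQ by a log2 fold change of -0.82 ± 0.10 (adjusted p = 6.47e-05). JAZ10 measured 17.0, 26.5 and 11.7 CPM in jazQ and 44.9, 47.7 and 35.1 CPM in jazD, with no overlap and a log2 fold change of 1.22 ± 0.27 (adjusted p = 0.0137). JAZ9 measured 59.6, 99.3 and 68.6 CPM in jazQ and 117, 159 and 138 CPM in jazD, and its rise of 0.86 ± 0.23 on the log2 scale (adjusted p = 0.0303) lost its call without jazQ replicate 1 (0.078), jazQ replicate 3 (0.0901), jazD replicate 2 (0.0857) or jazD replicate 3 (0.0726), and when low genes were not filtered (0.0514). JAZ1 was at 2.66, 2.54 and 2.79 CPM in jazQ and at 2.05, 2.69 and 2.26 CPM in jazD, against 25.4, 26.5 and 23.8 CPM in Col-0. Both lines were far below Col-0, and the difference between them was not called (adjusted p = 0.41). Of the intact genes, JAZ12 differed by 0.11 ± 0.06 and JAZ11 by 0.04 ± 0.13 on the log2 scale, and neither was called. JAZ8, which lacks the degradation signal of most JAZ proteins, measured 1.66, 8.50 and 1.204 CPM in jazQ and 6.05, 9.59 and 7.06 CPM in jazD. The groups overlapped because of jazQ replicate 2, and without that library the log2 fold change went from 1.01 (adjusted p = 0.316) to 2.42 with an adjusted p of 0.000179.

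**Figure D2:**
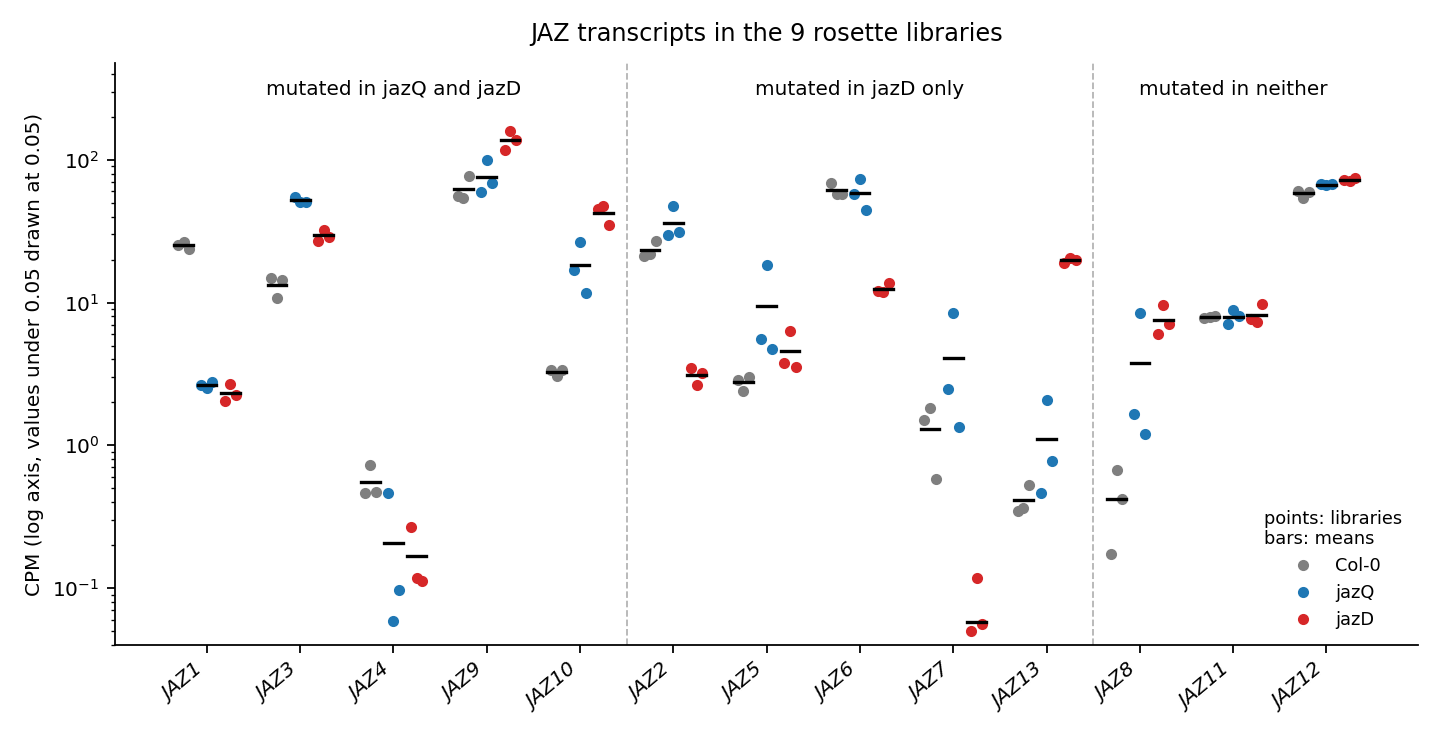
CPM (log axis) of the 13 JAZ genes in each library of Col-0 (grey), jazQ (blue) and jazD (red), with values under 0.05 drawn at 0.05 and bars at group means, ordered by the lines that carry a mutation in the gene. JAZ2, JAZ6 and JAZ7 lie lowest in jazD and JAZ13 highest, and the jazQ replicate 2 point is the upper one for JAZ5, JAZ7, JAZ8 and JAZ13.

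Jasmonate synthesis genes rose in part. Of 17 tested genes of the route, 8 were higher in jazD and none lower, with a median log2 fold change of 0.38 against -0.0053 over all genes. LOX2, the lipoxygenase that starts the pathway in leaves, measured 657, 667 and 735 CPM in jazQ and 4755, 4894 and 4937 CPM in jazD. AOS, allene oxide synthase, measured 218, 272 and 233 CPM in jazQ and 739, 869 and 721 CPM in jazD, and AOC2, an allene oxide cyclase, measured 223, 231 and 224 CPM in jazQ and 1106, 1207 and 1181 CPM in jazD. The groups did not overlap for any of the 3 genes, and the log2 fold changes were 2.82 ± 0.10 (adjusted p = 3.72e-10), 1.69 ± 0.11 (adjusted p = 8.28e-07) and 2.37 ± 0.12 (adjusted p = 1.46e-07). Without jazD replicate 3 a member was also called lower. LOX3, LOX4 and OPR3, named after their values were seen, were not called. LOX3 measured 26.3, 74.5 and 19.9 CPM in jazQ and 39.3, 74.7 and 42.7 CPM in jazD, with replicate 2 the highest of each group. OPR3, the peroxisomal reductase, was highest in replicate 2 as well, with 50.2, 99.2 and 55.1 CPM in jazQ and 70.9, 106 and 67.6 CPM in jazD. The groups overlapped for both genes through jazQ replicate 2, and the other jazQ libraries lay below every jazD library. A fit of these genes without that library is not given here.

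Genes that break the hormone down rose as well, with 6 of 9 tested higher, none lower and a median of 1.199. JRG21, a jasmonate oxidase, measured 2.66, 0.944 and 2.12 CPM in jazQ and 58.4, 65.7 and 58.1 CPM in jazD, a log2 fold change of 4.99 ± 0.28 (adjusted p = 5.08e-06). IAR3, which cleaves the isoleucine conjugate, rose by 1.31 ± 0.10 (adjusted p = 1.36e-06) from 39.5 ± 6.71 CPM to 98.0 ± 1.11 CPM (mean ± SD, n = 3 libraries), and ST2A, a sulfotransferase of hydroxyjasmonate, by 1.78 ± 0.18 (adjusted p = 1.17e-05). The cytochrome P450 genes that oxidise jasmonoyl-isoleucine, CYP94B1, CYP94B3 and CYP94C1, were the 3 members not called and are named after their values were seen. The lowest log2 fold change of the list, -1.22, was that of 1 of these 3 genes.

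The signalling components moved less. Of 12 tested genes for the receptor, its factors and co-repressors, 6 were higher and 1 was lower, with a median of 0.30. MYC3, a MYC2 relative, measured 69.9, 64.5 and 72.9 CPM in jazQ and 98.3, 108 and 100.5 CPM in jazD, without overlap, a log2 fold change of 0.56 ± 0.08 (adjusted p = 0.000212). The repressive factor JAM2 rose by 0.68 ± 0.12 (adjusted p = 0.00114) and NINJA by 0.35 ± 0.07 (adjusted p = 0.00183). MYC2 itself, named after its values were seen, measured 42.4, 84.5 and 56.7 CPM in jazQ and 123, 149 and 136 CPM in jazD and rose by 1.15 ± 0.24 (adjusted p = 0.0108), whereas COI1 was at 0.05 and not called. NIG1, also known as MYC5 and another MYC2 relative, fell by 3.06 ± 0.60 on the log2 scale (adjusted p = 0.00199), from 0.865, 1.83 and 0.771 CPM to 0.108, 0.117 and 0.169 CPM. MYC3 and NIG1 lie in a stretch of chromosome 5 described below. Without jazQ replicate 1, a further member was called lower, 2 in all.

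The list with the highest median was the ERF branch, the defence genes that respond to jasmonate and ethylene together. All 11 tested members rose, with a median log2 fold change of 5.56 (background 15.0% called higher). The groups did not overlap for any of them, against 44.2% of all genes tested without overlap. The member ERF2 lies in the chromosome 5 stretch described below. The plant defensin PDF1.3 measured 1.13, 0.649 and 2.07 CPM in jazQ and 3924, 4088 and 3496 CPM in jazD, a log2 fold change of 11.48 ± 0.64 (adjusted p = 2.84e-05). PDF1.2C measured 0.599, 1.06 and 0.722 CPM in jazQ and 2185, 2189.7 and 1848 CPM in jazD, and its log2 fold change was 11.33 ± 0.75 (adjusted p = 7.25e-05). PDF1.2B measured 0.133, 0.413 and 0.433 CPM in jazQ and 862, 905 and 884 CPM in jazD, and its log2 fold change was 11.31 ± 0.62 (adjusted p = 2.44e-05). These defensins went from barely detected in every jazQ library to abundant in every jazD library. PDF1.2A, named after its values were seen, measured 2.53, 1.71 and 4.29 CPM in jazQ and 4252, 4628 and 3855 CPM in jazD, a log2 fold change of 10.50 ± 0.71 (adjusted p = 8.40e-05). The defensins had lower means in jazQ than in Col-0, but the contrast was not called: PDF1.3 was at 10.3 ± 6.94 CPM in Col-0 and 1.28 ± 0.723 CPM in jazQ (mean ± SD, n = 3; adjusted p = 0.135). It was called for 2 of the 11 members, HEL, a chitin-binding protein, and HCHIB, described below. HCHIB was lower in jazQ than in Col-0 by a log2 fold change of -1.14 (adjusted p = 0.0018). HEL measured 56.8, 64.0 and 72.5 CPM in Col-0, 28.7, 25.9 and 41.7 CPM in jazQ and 1490.0, 1615 and 1453 CPM in jazD. HEL was lower in jazQ than in Col-0 by a log2 fold change of -0.9996 (adjusted p = 0.034) and higher in jazD than in jazQ by 5.56 ± 0.20 (adjusted p = 2.09e-07).

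HCHIB, a basic chitinase, measured 1.93, 1.83 and 1.88 CPM in jazQ and 62.8, 70.6 and 60.7 CPM in jazD, and the thionin THI2.1 measured 0.2, 0.236 and 0.337 CPM in jazQ and 23.6, 26.4 and 23.0 CPM in jazD. Both rose without overlap, by 5.10 ± 0.12 (adjusted p = 6.78e-12) and 6.48 ± 0.18 (adjusted p = 2.86e-11). Of the 50-base words in the exons of HCHIB, 30.6% recur in the neighbouring locus AT3G12502, so its counts are uncertain. ORA59, the ERF factor that activates PDF1.2, was named after its values were seen. It measured 1.53, 1.59 and 2.55 CPM in jazQ and 63.5, 79.4 and 87.5 CPM in jazD, above every jazQ library, and rose by 5.30 ± 0.23 (adjusted p = 2.38e-07).

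The coding sequences of the 4 defensin genes are printed because near-identical copies could share reads. They were read from the annotated TAIR10.1 genome of RefSeq, whose name differs from that of the TAIR10 build of the files, so positions are those of TAIR10.1. The genes lie in 2 pairs, at chr5:17906968-17907638 (PDF1.2A, minus strand) with chr5:17908850-17909507 (PDF1.2C, minus strand), and at chr2:11089123-11089805 (PDF1.2B, plus strand) with chr2:11087280-11088001 (PDF1.3, plus strand). Capitals mark bases that differ from PDF1.2A at the same position of the 243-base coding sequence.
PDF1.2A: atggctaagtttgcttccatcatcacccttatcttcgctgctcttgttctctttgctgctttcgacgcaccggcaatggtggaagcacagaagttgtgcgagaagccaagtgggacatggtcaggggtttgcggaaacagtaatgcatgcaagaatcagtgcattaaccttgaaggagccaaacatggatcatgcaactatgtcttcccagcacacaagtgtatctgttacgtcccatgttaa
PDF1.2B: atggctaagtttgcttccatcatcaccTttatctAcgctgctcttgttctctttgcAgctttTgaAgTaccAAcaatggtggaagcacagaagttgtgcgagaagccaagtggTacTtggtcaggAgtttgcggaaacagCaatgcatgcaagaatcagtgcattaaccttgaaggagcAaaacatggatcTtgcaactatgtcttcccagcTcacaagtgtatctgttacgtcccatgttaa
PDF1.2C: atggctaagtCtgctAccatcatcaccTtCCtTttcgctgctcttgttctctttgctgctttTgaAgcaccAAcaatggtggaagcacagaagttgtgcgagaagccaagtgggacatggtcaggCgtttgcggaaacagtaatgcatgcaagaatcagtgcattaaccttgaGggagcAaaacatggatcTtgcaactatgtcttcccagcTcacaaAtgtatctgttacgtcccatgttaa
PDF1.3: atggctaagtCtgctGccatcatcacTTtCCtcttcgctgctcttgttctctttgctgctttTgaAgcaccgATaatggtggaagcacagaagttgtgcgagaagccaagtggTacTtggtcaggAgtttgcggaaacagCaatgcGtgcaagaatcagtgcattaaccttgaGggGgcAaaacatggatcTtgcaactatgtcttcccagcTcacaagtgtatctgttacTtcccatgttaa
PDF1.2B, PDF1.2C and PDF1.3 differed from PDF1.2A at 15, 16 and 21 bases, which is an identity of 93.8, 93.4 and 91.4%. Of the 50-base words in the exons of these genes at most 5.0% recur in another gene for PDF1.2B, PDF1.2C and PDF1.3. Reads that match several defensin genes are divided among them in the authors' expected counts, and all 4 genes rose.

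The upstream windows are printed for PDF1.2A, PDF1.2B and AACT1 because these genes, chosen after their values were seen, rose and held a GCC box, the element bound by ERF factors, within 250 bases of their annotated start. The motif GCCGCC was searched on both strands, together with the G-box CACGTG that MYC factors bind. The windows are the bases just before the start in TAIR10.1, 5′ to 3′ on the gene's strand, with GCC boxes in capitals, at chr5:17907639-17907888 (minus strand), chr2:11088873-11089122 (plus strand) and chr5:24608355-24608604 (plus strand).
PDF1.2A: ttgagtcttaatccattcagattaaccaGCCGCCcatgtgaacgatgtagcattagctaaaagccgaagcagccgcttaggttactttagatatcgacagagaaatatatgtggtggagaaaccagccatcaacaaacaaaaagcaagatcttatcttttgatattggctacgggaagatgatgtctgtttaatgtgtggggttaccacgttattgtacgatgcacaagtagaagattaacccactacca
PDF1.2B: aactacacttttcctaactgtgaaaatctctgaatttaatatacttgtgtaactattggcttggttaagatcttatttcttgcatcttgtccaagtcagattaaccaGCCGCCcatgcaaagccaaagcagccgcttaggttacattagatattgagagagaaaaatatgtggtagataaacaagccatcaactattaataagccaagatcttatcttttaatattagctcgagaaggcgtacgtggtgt
AACT1: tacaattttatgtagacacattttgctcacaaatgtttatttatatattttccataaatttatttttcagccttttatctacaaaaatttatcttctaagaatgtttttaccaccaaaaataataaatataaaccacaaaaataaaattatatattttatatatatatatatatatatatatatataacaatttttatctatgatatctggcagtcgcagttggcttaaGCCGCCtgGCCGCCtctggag
The GCC box lay 222 bases before the start of PDF1.2A, 143 before that of PDF1.2B and 13 and 21 before that of AACT1. Of the 11 ERF branch genes 3 held one (ORA59, PDF1.2A and PDF1.2B). A GCC box was found in 5.74% of the windows of genes called at least 2-fold higher (44 of 766) and in none of the 265 of genes called at least 2-fold lower. The share was 1.98% over the 18755 windows of genes tested and 1.87% over all 27443 protein-coding genes. For the G-box the shares were 10.6% (higher), 6.04% (lower), 7.41% (genes tested) and 6.49% (all protein-coding genes). PDF1.2C and PDF1.3, which rose as PDF1.2B did, had neither motif in this window, and a match is a description of the letters only.

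**Figure D3:**
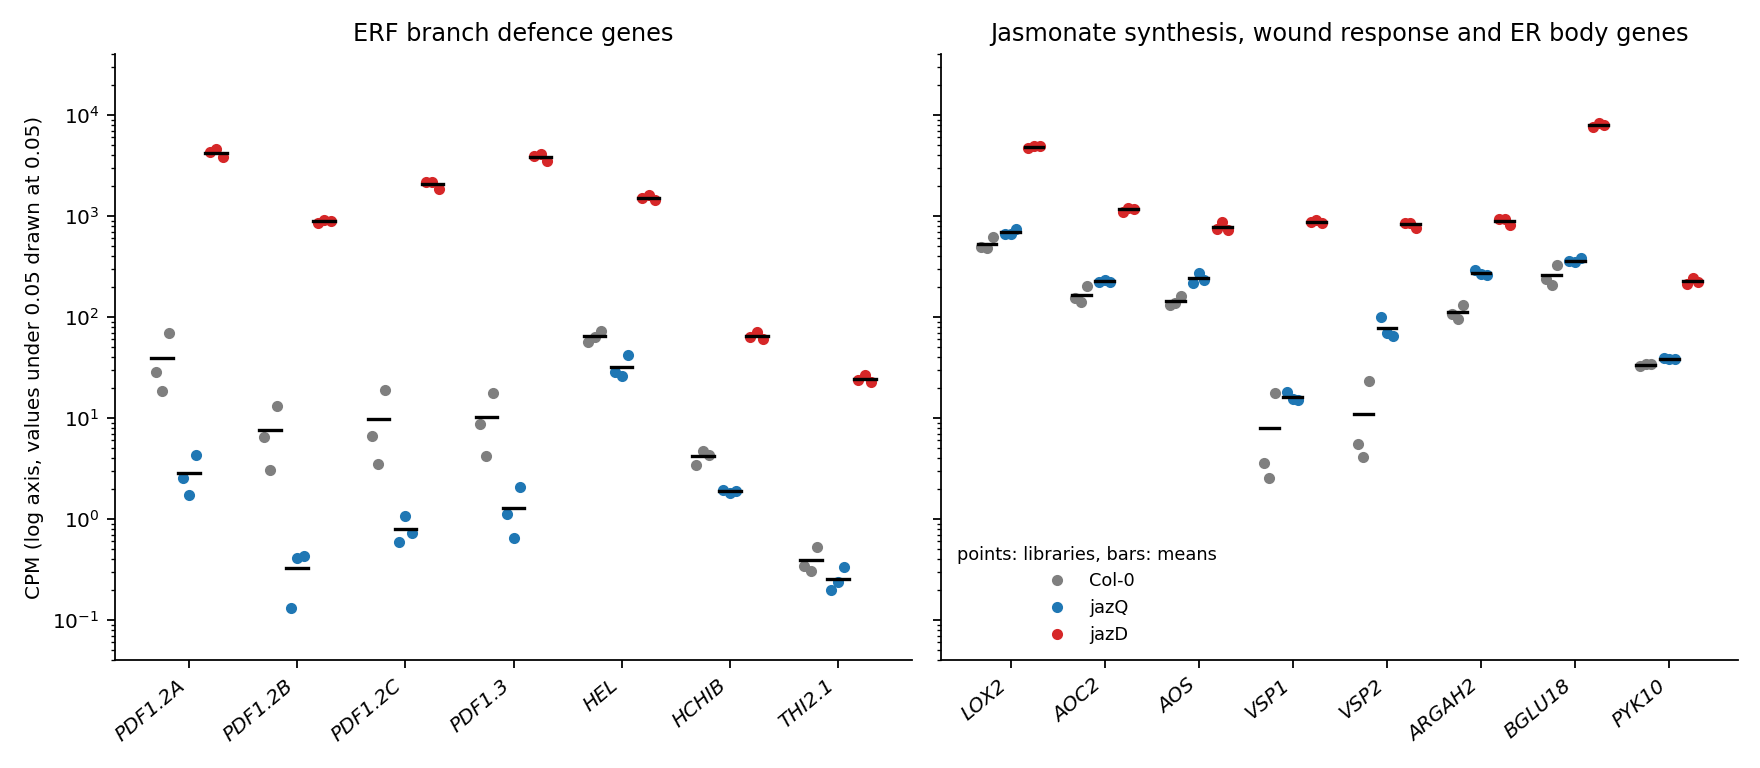
CPM (log axis) in each library of Col-0 (grey), jazQ (blue) and jazD (red) for ERF branch genes (left) and genes of jasmonate synthesis, wound response and ER bodies (right), with bars at group means. The jazD points lie above all others for every gene shown, and on the left the jazQ mean lies below that of Col-0.

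The MYC branch, the wound and herbivory genes under MYC factors, rose in 11 of 13 tested members with a median of 3.05. MBP2, a myrosinase-binding protein, measured 20.4, 22.7 and 20.3 CPM in jazQ and 238, 254 and 265 CPM in jazD, a log2 fold change of 3.58 ± 0.17 (adjusted p = 9.45e-07). ANAC055, a NAC factor, went from 0.532, 0.354 and 0.385 CPM to 8.91, 10.4 and 9.14 CPM, a log2 fold change of 4.48 ± 0.20 (adjusted p = 3.75e-09). The groups of both genes were well apart. ARGAH2, an arginase that degrades a dietary amino acid of insects, measured 294, 269 and 263 CPM in jazQ and 924, 944 and 821 CPM in jazD, above 108, 95.3 and 133 CPM in Col-0. It was called in both steps, by 1.2965 from Col-0 to jazQ (adjusted p = 0.000159) and by 1.70 ± 0.11 from jazQ to jazD (adjusted p = 8.37e-07). The vegetative storage proteins were named after their values were seen. VSP1 measured 18.0, 15.3 and 14.9 CPM in jazQ and 865, 921 and 849 CPM in jazD and VSP2 measured 101, 70.2 and 65.4 CPM in jazQ and 849, 858 and 768 CPM in jazD. Their log2 fold changes were 5.78 ± 0.62 (adjusted p = 0.0008) and 3.39 ± 0.55 (adjusted p = 0.00512), with no overlap.

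ER bodies are compartments of the endoplasmic reticulum that store β-glucosidases, and all 11 tested genes for them rose, with a median of 2.55. PYK10, the β-glucosidase of constitutive ER bodies, measured 39.0, 38.0 and 38.8 CPM in jazQ and 213, 244 and 222 CPM in jazD, and NAI2, a protein needed to form the bodies, measured 14.8, 15.1 and 12.7 CPM in jazQ and 85.4, 91.4 and 83.5 CPM in jazD. JAL33, a jacalin-related lectin, measured 2.59, 2.72 and 2.46 CPM in jazQ and 25.8, 30.2 and 25.9 CPM in jazD. The replicates were tight and the groups apart for each, with log2 fold changes of 2.55 ± 0.06 (adjusted p = 1.16e-11), 2.62 ± 0.09 (adjusted p = 1.78e-10) and 3.40 ± 0.12 (adjusted p = 2.23e-10). BGLU18, the β-glucosidase of wound-induced ER bodies, was named after its values were seen. It measured 358, 348 and 379.9 CPM in jazQ and 7679, 8298 and 7910.1 CPM in jazD and rose by 4.46 ± 0.16 (adjusted p = 6.14e-08).

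The 2 classes of glucosinolates, sulfur-containing defence compounds of the cabbage order, parted. Of 19 tested indole glucosinolate genes 15 were higher in jazD than in jazQ and none lower, with a median of 1.36, and of 17 aliphatic ones none was higher and 15 lower, with a median of -0.56. The background was 15.0% higher and 13.8% lower. CYP79B3, which turns tryptophan into an oxime, measured 38.3, 44.7 and 46.4 CPM in jazQ and 173, 189 and 176 CPM in jazD. CYP83B1, which takes the oxime further, measured 161, 181 and 183 CPM in jazQ and 512, 526 and 524 CPM in jazD, and the glutathione transferase GSTF10 measured 231, 242 and 265 CPM in jazQ and 1037, 1083 and 1164 CPM in jazD. All 3 rose without overlap, by 2.05 ± 0.08 (adjusted p = 7.08e-10), 1.57 ± 0.07 (adjusted p = 3.42e-09) and 2.15 ± 0.08 (adjusted p = 3.72e-10).

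On the aliphatic side, CYP79F1, which oxidises chain-elongated methionine, measured 253, 304 and 293 CPM in jazQ and 140.0, 146 and 149 CPM in jazD, and 165, 168 and 179 CPM in Col-0. CYP83A1, the next enzyme, measured 316, 351 and 339 CPM in jazQ and 199, 197 and 208 CPM in jazD, and 228, 230.1 and 257 CPM in Col-0. IPMI2, an isomerase subunit of methionine chain elongation, measured 119, 112 and 118 CPM in jazQ and 73.4, 72.9 and 75.7 CPM in jazD, and 78.8, 68.4 and 76.2 CPM in Col-0. The jazQ libraries were the highest for each gene and the jazD libraries lay below Col-0 for CYP79F1 and CYP83A1 and within its range for IPMI2. From jazQ to jazD the log2 fold changes were -0.97 ± 0.07 (adjusted p = 4.21e-07), -0.74 ± 0.06 (adjusted p = 2.10e-06) and -0.65 ± 0.06 (adjusted p = 5.63e-06). In jazQ against Col-0, a contrast that shares the jazQ libraries with the main one, 14 of the 17 aliphatic genes were higher and none lower (background 0.861% and 0.412%), with a median of 0.63, and jazD against Col-0 had a median of -0.07 with 3 higher and 3 lower. The indole genes had a median of 0.05 in jazQ against Col-0, with 2 higher, and of 1.39 in jazD against Col-0, with 16 higher.

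**Figure D4:**
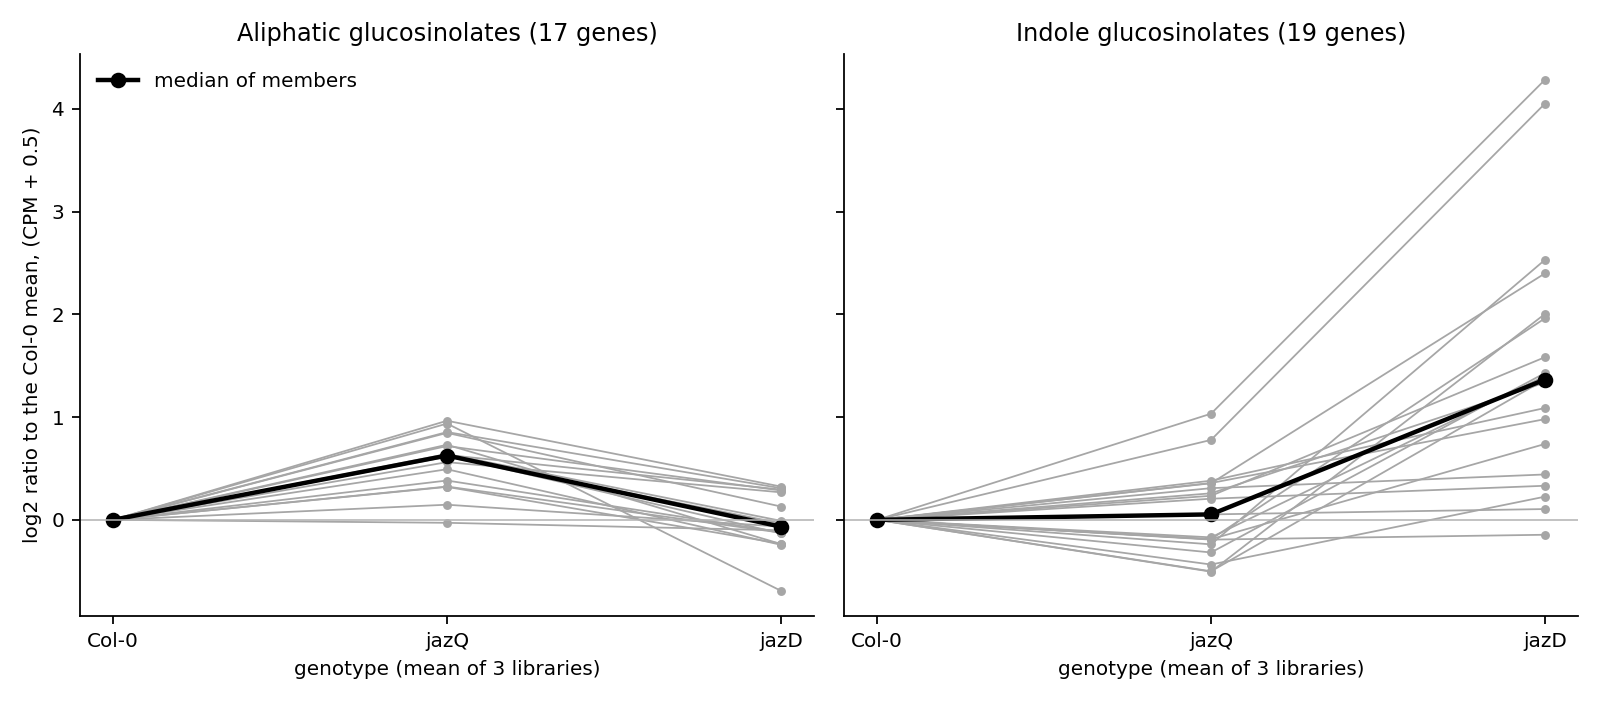
Log2 ratio of each gene's mean CPM (plus 0.5) to its Col-0 mean in the 3 genotypes (means of 3 libraries), 1 grey line per tested gene and the median in black. Aliphatic genes are highest in jazQ and near the Col-0 level in jazD, and indole genes lie near Col-0 in jazQ and above it in jazD.

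Tryptophan, the precursor of indole glucosinolates, is made through the shikimate pathway. In tryptophan synthesis 8 of 10 tested genes were higher and 1 lower (2 lower without jazQ replicate 1), with a median of 1.48. TSA1, a tryptophan synthase α subunit, measured 56.7, 54.5 and 61.6 CPM in jazQ and 245, 244 and 262 CPM in jazD, and TSB1, the β subunit, measured 204, 222 and 232 CPM in jazQ and 942, 1032 and 1072 CPM in jazD. PAT1, the phosphoribosyltransferase of the pathway, measured 89.7, 86.1 and 97.7 CPM in jazQ and 346, 346 and 337 CPM in jazD. Each was several-fold higher in every jazD library, with log2 fold changes of 2.12 ± 0.08 (adjusted p = 3.82e-10), 2.21 ± 0.08 (adjusted p = 2.55e-10) and 1.91 ± 0.06 (adjusted p = 9.76e-11), and TSB1 lies in the chromosome 5 stretch. ASA2, an anthranilate synthase α subunit, was the member that fell, by 0.26 ± 0.06 (adjusted p = 0.00705). In the shikimate pathway 5 of 8 genes rose with a median of 0.22, and 3 did so without jazQ replicate 2, jazD replicate 2 or jazD replicate 3 and on either log2 TPM scale. DHS1, the entry enzyme, measured 93.4, 112 and 112 CPM in jazQ and 233, 252 and 255 CPM in jazD, a rise of 1.22 ± 0.08 (adjusted p = 2.48e-07). AT2G45300, EPSP synthase, rose by 0.44 ± 0.08 (adjusted p = 0.00131) and the shikimate kinase SK2 by 0.25 ± 0.06 (adjusted p = 0.00811).

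Sulfate assimilation, the source of the sulfur in these compounds, rose in 6 of 10 tested genes, with none lower and a median of 0.51. APR3, an adenylyl-sulfate reductase, measured 43.5, 48.3 and 51.0 CPM in jazQ and 168, 187 and 148 CPM in jazD, without overlap, a log2 fold change of 1.81 ± 0.09 (adjusted p = 7.11e-09). GSH2, glutathione synthetase, rose by 1.26 ± 0.07 (adjusted p = 3.72e-08) and SIR, sulfite reductase, by 0.64 ± 0.06 (adjusted p = 1.98e-06). APR1 and APR2, named after their values were seen, were not called, at 0.05 and -0.37.

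Agmatine conjugates, which in barley are antifungal hordatines, had 4 tested genes and all rose (background 15.0%). AACT1, an acyltransferase, measured 0.333, 0.708 and 0.867 CPM in jazQ and 379, 389 and 339.7 CPM in jazD, and its log2 fold change was 9.11 ± 0.30 (adjusted p = 2.38e-07). AT3G23550, a MATE transporter, measured 7.65, 3.78 and 8.09 CPM in jazQ and 337, 293 and 275 CPM in jazD, with a log2 fold change of 5.53 ± 0.25 (adjusted p = 2.85e-06). Both went from low to high levels in every library. ADC1, an arginine decarboxylase that supplies agmatine, measured 224, 236 and 215 CPM in jazQ and 531, 589 and 479.9 CPM in jazD, a log2 fold change of 1.24 ± 0.09 (adjusted p = 8.03e-07). AACT1 was lower in jazQ than in Col-0, at 3.22, 2.51 and 5.65 CPM in Col-0 (adjusted p = 0.0322).

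Flavonoid and anthocyanin genes rose in 13 of 19 tested members, with a median of 0.42, and without jazQ replicate 1 a member was called lower. LDOX, the leucoanthocyanidin dioxygenase, measured 22.0, 20.0 and 18.3 CPM in jazQ and 56.2, 60.3 and 57.1 CPM in jazD, above 10.7, 8.44 and 8.71 CPM in Col-0. AT4G14090, an anthocyanin glucosyltransferase, measured 13.4, 12.5 and 14.7 CPM in jazQ and 28.1, 36.8 and 36.9 CPM in jazD, and UGT79B1 measured 6.52, 7.20 and 5.73 CPM in jazQ and 14.3, 15.9 and 15.8 CPM in jazD. All 3 were higher in jazQ than in Col-0 (adjusted p = 8.79e-05, 0.00179 and 3.80e-05) and higher again in jazD, by 1.53 ± 0.09 (adjusted p = 5.89e-08), 1.32 ± 0.11 (adjusted p = 1.41e-06) and 1.25 ± 0.11 (adjusted p = 2.01e-06). UGT79B1 lies in the chromosome 5 stretch. Among 12 genes of general phenylpropanoid and monolignol synthesis, 5 rose and 1 fell (background 15.0% and 13.8%), with a median of -0.01. CAD5, a cinnamyl alcohol dehydrogenase, rose by 1.09 ± 0.08 (adjusted p = 3.01e-07), FAH1, ferulate 5-hydroxylase, by 0.46 ± 0.06 (adjusted p = 4.12e-05) and PAL1, the entry enzyme, by 0.32 ± 0.08 (adjusted p = 0.0114). HCT, in the chromosome 5 stretch, fell by 0.21 ± 0.06 (adjusted p = 0.0155). The rises numbered 2 without jazD replicate 2, when PAL1 was not called, and 3 without jazD replicate 3. The call of HCT was lost without jazQ replicate 2, jazD replicate 1 or jazD replicate 3, and 2 members were called lower without jazQ replicate 1 or jazD replicate 2. On either log2 TPM scale the balance turned, with 2 higher and 4 lower.

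Among 6 genes of the antioxidants ascorbate and tocopherol, 3 rose and 1 fell. DHAR1, dehydroascorbate reductase, measured 176, 174 and 169 CPM in jazQ and 429, 416 and 421 CPM in jazD, a log2 fold change of 1.29 ± 0.10 (adjusted p = 1.60e-06). VTE2, the prenyltransferase of tocopherol synthesis, rose by 0.89 ± 0.08 (adjusted p = 2.35e-06) and VTE1, its cyclase, fell by 0.46 ± 0.09 (adjusted p = 0.00153). Without Col-0 replicate 2 or jazQ replicate 1, 2 members were called lower.

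Cell-wall loosening genes were lower in part. Of 24 tested expansins and xyloglucan-modifying XTH enzymes, which loosen cell walls as cells expand, 8 were lower and none higher, with a median of -0.73. EXPA11 measured 39.1, 36.6 and 45.7 CPM in jazQ and 13.1, 14.2 and 14.7 CPM in jazD, below 70.0, 65.8 and 71.7 CPM in Col-0. XTH7 measured 90.3, 84.3 and 81.4 CPM in jazQ and 38.0, 31.9 and 32.4 CPM in jazD, and EXPB1 measured 14.6, 13.8 and 14.0 CPM in jazQ and 5.89, 7.31 and 5.59 CPM in jazD. No jazD library reached the lowest jazQ library for these genes, and the log2 fold changes were -1.53 ± 0.09 (adjusted p = 4.93e-08), -1.32 ± 0.08 (adjusted p = 4.22e-08) and -1.17 ± 0.12 (adjusted p = 7.60e-06). The summed level of the list ranged from 1505 to 1932 CPM in jazQ and 1141 to 1342 CPM in jazD. On log2(TPM + 0.1), 13 members were lower.

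Gibberellin genes, for a hormone of stem and leaf growth, changed in both directions, with a median of -0.24. Of 14 tested, 4 were higher and 6 lower (background 15.0% and 13.8%). GASA6, a gibberellin-induced peptide, measured 150.0, 152 and 168 CPM in jazQ and 52.3, 54.0 and 61.3 CPM in jazD, and fell by 1.49 ± 0.08 (adjusted p = 2.29e-08). The receptor GID1B measured 2.86, 3.66 and 4.24 CPM in jazQ and 9.56, 9.71 and 8.64 CPM in jazD and rose by 1.36 ± 0.16 (adjusted p = 3.18e-05). RGL3, a DELLA repressor of the pathway, measured 1.53, 3.01 and 1.3005 CPM in jazQ and 6.43, 8.30 and 5.93 CPM in jazD, and rose by 1.83 ± 0.25 (adjusted p = 0.000161). The biosynthetic gene GA3OX1, at -1.25, and the receptors GID1A and GID1C, each at 0.42, were also called, and are named after their values were seen.

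Of 20 tested auxin genes 5 were higher and 4 lower, with a median of 0.06, and 4 were higher and 5 lower on either log2 TPM scale. These counts lie near the background of 15.0% called higher and 13.8% called lower. The repressor IAA3 measured 41.9, 40.7 and 31.0 CPM in jazQ and 18.4, 19.7 and 17.3 CPM in jazD and IAA17 measured 37.0, 38.6 and 39.6 CPM in jazQ and 24.1, 27.2 and 24.0 CPM in jazD. Both fell, by 1.03 ± 0.11 (adjusted p = 1.75e-05) and 0.61 ± 0.07 (adjusted p = 4.25e-05). GH3.3, which conjugates auxin to amino acids, measured 4.86, 5.31 and 5.01 CPM in jazQ and 15.7, 13.6 and 14.3 CPM in jazD and rose by 1.52 ± 0.10 (adjusted p = 1.46e-07).

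In ethylene synthesis and signalling 7 of 16 genes rose and 2 fell (background 15.0% and 13.8%), with a median of 0.23. The oxidase ACO4, which makes ethylene, measured 228, 218 and 228 CPM in jazQ and 492, 474 and 493 CPM in jazD, a rise of 1.11 ± 0.06 (adjusted p = 1.46e-08). CTR1, the kinase that represses ethylene responses, rose by 0.59 ± 0.06 (adjusted p = 1.20e-05), and ACO1 fell by 1.00 ± 0.15 (adjusted p = 0.000248). The rises numbered 4 without jazQ replicate 2 or jazD replicate 1 and on either log2 TPM scale. Salicylate genes, of the defence hormone often opposed to jasmonate, rose in 7 of 17 and fell in 1, with a median of 0.28 (background as for ethylene). WRKY38, a WRKY factor, measured 2.06, 2.48 and 2.46 CPM in jazQ and 6.64, 7.43 and 8.58 CPM in jazD, a rise of 1.68 ± 0.16 (adjusted p = 4.22e-06). EDS5, the salicylate precursor transporter, rose by 0.85 ± 0.17 (adjusted p = 0.00574) and NPR3, a salicylate receptor in the chromosome 5 stretch, by 0.72 ± 0.14 (adjusted p = 0.003). ALD1, of pipecolate synthesis, fell by 1.00 ± 0.24 (adjusted p = 0.0131). Without jazD replicate 2, 4 members rose and ALD1 was not called, and without Col-0 replicate 2, 2 members fell. The marker genes PR1 and PR2, named after their values were seen, were not called, at 0.85 and -0.80.

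Some photosynthesis genes were lower, by small amounts. In the Calvin cycle 10 of 16 tested genes were lower and none higher (background 13.8% and 15.0%), with a median of -0.26. RCA, Rubisco activase, measured 6971, 6322 and 6606 CPM in jazQ and 4632, 4519.7 and 4204 CPM in jazD, and PRK, phosphoribulokinase, measured 1181, 1041 and 1037 CPM in jazQ and 837, 876 and 826 CPM in jazD. RBCS1B, a Rubisco small subunit with near-identical copies, measured 1941, 2011 and 2039 CPM in jazQ and 1424, 1325 and 1569 CPM in jazD. The groups did not overlap, and the log2 fold changes were -0.58 ± 0.07 (adjusted p = 3.31e-05), -0.36 ± 0.06 (adjusted p = 0.00101) and -0.47 ± 0.07 (adjusted p = 0.000202).

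Of 26 light-harvesting and photosystem genes 11 were lower and none higher (background 13.8% and 15.0%), with a median of -0.22. LHCB5 measured 6392, 6287 and 6448 CPM in jazQ and 5238, 5285 and 4698 CPM in jazD, LHCB4.3 measured 45.1, 35.5 and 47.8 CPM in jazQ and 29.0, 23.7 and 28.8 CPM in jazD, and LHCB3, in the chromosome 5 stretch, measured 9208, 7958 and 8649 CPM in jazQ and 6633, 6661 and 6656 CPM in jazD. All 3 encode antenna proteins of photosystem II, and they fell by 0.33 ± 0.06 (adjusted p = 0.00141), 0.66 ± 0.11 (adjusted p = 0.00112) and 0.37 ± 0.06 (adjusted p = 0.000739). The count depended on single libraries and on scale: 19 were lower without jazQ replicate 2, 7 without jazD replicate 3, and 24 on either log2 TPM scale.

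DNA replication and cell cycle genes had 5 of 16 lower and none higher (background 13.8% and 15.0%), with a median of -0.19. The mitotic kinase gene CDKB2;1 measured 20.5, 21.2 and 24.3 CPM in jazQ and 15.9, 18.25 and 16.3 CPM in jazD, with little space between the groups. It fell by 0.39 ± 0.10 (adjusted p = 0.00786), TSO2, a ribonucleotide reductase subunit, by 0.26 ± 0.06 (adjusted p = 0.00692) and MCM6, a replicative helicase subunit in the chromosome 5 stretch, by 0.36 ± 0.08 (adjusted p = 0.00478).

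Senescence genes rose in plants of the same age, with 10 of 11 tested higher, none lower and a median of 1.27. The protease gene SAG12, which is in the chromosome 5 stretch, measured 0, 0.472 and 0 CPM in jazQ and 15.4, 9.71 and 14.8 CPM in jazD, a log2 fold change of 6.39 ± 0.62 (adjusted p = 0.000144). NAP, a NAC factor of senescence, measured 2.39, 3.07 and 2.65 CPM in jazQ and 10.6, 10.5 and 10.2 CPM in jazD, and PPH, a chlorophyll-degrading pheophytinase, measured 52.3, 58.1 and 55.3 CPM in jazQ and 85.9, 86.4 and 90.6 CPM in jazD. Both rose without overlap, by 1.94 ± 0.12 (adjusted p = 9.18e-08) and 0.67 ± 0.06 (adjusted p = 5.42e-06).

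Genes induced by carbon starvation rose in 5 of 10, with a median of 0.45. BCAT2, a branched-chain aminotransferase, measured 2.86, 2.18 and 2.26 CPM in jazQ and 59.2, 55.0 and 54.3 CPM in jazD, a rise of 4.54 ± 0.10 (adjusted p = 5.29e-12). BGLU30, a dark-induced β-glucosidase, measured 0.466, 0.118 and 0.144 CPM in jazQ and 3.62, 4.56 and 8.69 CPM in jazD, a rise of 4.58 ± 0.60 (adjusted p = 0.00045), and IVD, which degrades leucine, rose by 0.53 ± 0.10 (adjusted p = 0.00183). The summed level of the list was highest in replicate 1 of every genotype, at 763 CPM in jazQ replicate 1 against 314 and 363 CPM in the other jazQ libraries. Alternative respiration, the mitochondrial bypass of the main electron chain, had 4 of 6 tested genes higher. AOX1D, an alternative oxidase, measured 0.599, 0.354 and 1.06 CPM in jazQ and 4.16, 3.51 and 4.74 CPM in jazD, a rise of 2.56 ± 0.30 (adjusted p = 3.07e-05). NDA2, an alternative NADH dehydrogenase, rose by 0.88 ± 0.14 (adjusted p = 0.00076) and the carrier UCP1 by 0.52 ± 0.06 (adjusted p = 4.69e-05).

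Other lists bear on handling, time of day and cell types. Touch and early wound genes had 2 of 8 higher (background 15.0%), with summed levels of 343 to 572 CPM in jazQ and 624 to 814 CPM in jazD. The zinc finger gene ZAT10 measured 13.1, 14.6 and 13.2 CPM in jazQ and 35.0, 33.3 and 45.6 CPM in jazD, a rise of 1.48 ± 0.20 (adjusted p = 0.000763), and WRKY33 measured 59.1, 55.7 and 46.9 CPM in jazQ and 138, 132 and 125 CPM in jazD, a rise of 1.29 ± 0.19 (adjusted p = 0.00194). The part of such handling in the jasmonate genes above was not tested. ZAT12 was separated narrowly, at 3.06, 4.31 and 4.38 CPM in jazQ and 5.89, 4.56 and 10.9 CPM in jazD, and was called only by the Wald test of DESeq2 (0.0177) and without jazD replicate 2 (0.0145). Of 10 clock genes 2 rose and 2 fell, near the background of 15.0% higher and 13.8% lower. The morning gene PRR9 fell by 0.80 ± 0.17 (adjusted p = 0.00754), and the evening genes LUX and TOC1 rose by 0.55 ± 0.16 (adjusted p = 0.0289) and 0.66 ± 0.20 (adjusted p = 0.0429). Neither LUX nor TOC1 was called without jazQ replicate 1, jazQ replicate 2, jazD replicate 2 or jazD replicate 3, TOC1 was also lost without Col-0 replicate 2 or jazQ replicate 3, and 1 clock gene fell without Col-0 replicate 1, jazQ replicates 1 or 2, or any jazD replicate.

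Of 5 tested flowering regulators SOC1, which promotes flowering, fell by 0.20 ± 0.07 (adjusted p = 0.0359), a call lost without jazQ replicate 1, jazQ replicate 2 or any jazD replicate. FUL and CO were not called, at -0.23 and 0.38. Among heat shock genes HSP70 rose by 0.69 ± 0.17 (adjusted p = 0.00981), while HSFA2 and HSP18.2 were not called, at -0.18 and 0.11. Guard cell markers were lower in 3 of 4 (background 13.8%). Their summed levels were 54.7 to 61.3 CPM in jazQ and 44.3 to 50.8 CPM in jazD. The channel genes KAT1, in the chromosome 5 stretch, and SLAC1 fell by 0.71 ± 0.12 (adjusted p = 0.000833) and 0.68 ± 0.13 (adjusted p = 0.00195), and MYB60 by 0.26 ± 0.09 (adjusted p = 0.0488). The call of MYB60 was lost in 13 of the 18 alternative fits, among them those without any Col-0 replicate, any jazD replicate, jazQ replicate 1 or jazQ replicate 2. None of the 4 trichome markers was called by edgeR, and GL2, GL1 and MYB23 were at -0.20, -0.48 and -0.10. GL1 passed on both TPM scales. Root markers summed to 0.867 to 1.36 CPM in jazQ and 1.34 to 1.78 CPM in jazD, with only NRT2.1 tested (0.72, adjusted p = 0.0684), and flower markers to 0.144 to 0.236 CPM and 0.108 to 0.226 CPM, with none tested. The part of these cell types in the changes above was not tested.

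Several of the largest changes were in genes of no known jasmonate role on chromosome 5. Among the 5 largest rises were PDF1.3, PDF1.2C and PDF1.2B, together with AT5G28810 and AT5G47260. AT5G28810, a gene with a domain of unknown function, held 1 count over the jazQ libraries and 81.7, 74.9 and 80.1 CPM in jazD, a ratio of 4166 (95% counting interval 747 to 164600.0). AT5G47260, a nucleotide-binding protein by the files' annotation, had no count in jazQ or Col-0 and 9.94, 11.3 and 14.0 CPM in jazD, at least 206-fold higher against the 3 counts that a total of 0 allows over the group. The 5 largest falls were all on this chromosome. AT5G50565 went from 13.6, 11.6 and 11.6 CPM to no count in jazD, at least 216-fold lower. All of its exon words recur in the copy AT5G50665, so reads cannot be assigned between the copies. AT5G50665 itself went from 310 counts in jazQ to 1 in jazD. AT5G49440 went from 71.5, 67.0 and 70.2 CPM in jazQ to 0, 0.117 and 0.113 CPM in jazD, a log2 fold change of -9.73 ± 0.19 (adjusted p = 2.66e-12). AT5G49640, which shares nearly all its exon words with the neighbouring locus AT5G49645, went from 759 counts to 1, a ratio of 768 (95% counting interval 137 to 30360.0), and AT5G55790 from 583 to 2, a ratio of 295 (95% counting interval 81.2 to 2440.0). None of AT5G50565, AT5G49440, AT5G49640 and AT5G55790 was called between jazQ and Col-0, and AT5G49440 was at 66.3, 74.5 and 65.9 CPM in Col-0. AT5G35935, a transposable element gene, measured 17.8, 15.8 and 15.1 CPM in jazQ and 0.324, 0.292 and 0.169 CPM in jazD, and 1.21, 2.08 and 1.74 CPM in Col-0, between the other groups, with a log2 fold change from jazQ to jazD of -5.91 ± 0.22 (adjusted p = 5.60e-10). Reads shared with other loci also make the counts of further named genes uncertain, since between 11.5% and 36.1% of their exon words recur elsewhere for SLAC1, IAA3, PRR9, AT4G14090, GASA6, CO, AT5G28810, LUX, RBCS1B, DHAR1, PAT1 and LHCB3.

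Genes that were nearly silent in jazD (mean under 0.3 CPM) and expressed in jazQ (mean above 2 CPM) numbered 14, of which 11 were on chromosome 5 and 10 in the stretch from AT5G44490 to AT5G55790. AT5G50565 and its copy AT5G50665 are counted separately among the 10. So is SPL13A, 87.2% of whose exon words recur in other genes. In the opposite direction 29 genes were nearly silent in jazQ and expressed in jazD, of which 7 were on chromosome 5 and 4 in the stretch. AT1G06002, one of the 14, measured 3.86, 4.19 and 0 CPM in jazQ and 0, 0 and 0.677 CPM in jazD, so its groups overlapped, and it was not called (adjusted p = 0.211), while the other 13 were. Of the 29, 28 were tested and called. Both sets were picked by these same counts, so their calls follow largely from the choice and are no further support. AT5G50520, among the 4 in the stretch, was not tested: its 204 counts were all in jazD replicate 3, at 11.5 CPM, and 100% of its exon words recur in AT5G50630. Of the 35 genes called and at least 8-fold lower in jazD, 23 were in the stretch. The stretch was delimited with these results known, so its shares are a description. Of its 863 tested genes 39.5% were called, 143 higher and 198 lower, against 28.3% of 18542 genes elsewhere and 27.9% of the rest of chromosome 5. Without the nearly silent genes the share was 38.6%. In jazQ against Col-0, 1.16% of the genes of the stretch were called. In windows of 100 consecutive tested genes the share called had a median of 39% inside the stretch (range 28 to 49%) and of 28% outside it (14 to 45%), and windows just past its far end also stood above the median. PDF1.2A and PDF1.2C lie just before its near end and are not counted in it. Whether the stretch differs between the lines in DNA was not tested, and for its genes such a difference and the JAZ mutations cannot be told apart. The same holds for genes close to its edges, which were set with the results known. It also holds for genes close to a JAZ gene mutated in jazD alone, such as THI2.1 and PATL1 (described below) near JAZ6 and GASA6 near JAZ2. Outside the stretch 2775 genes were higher and 2480 lower.

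**Figure D5:**
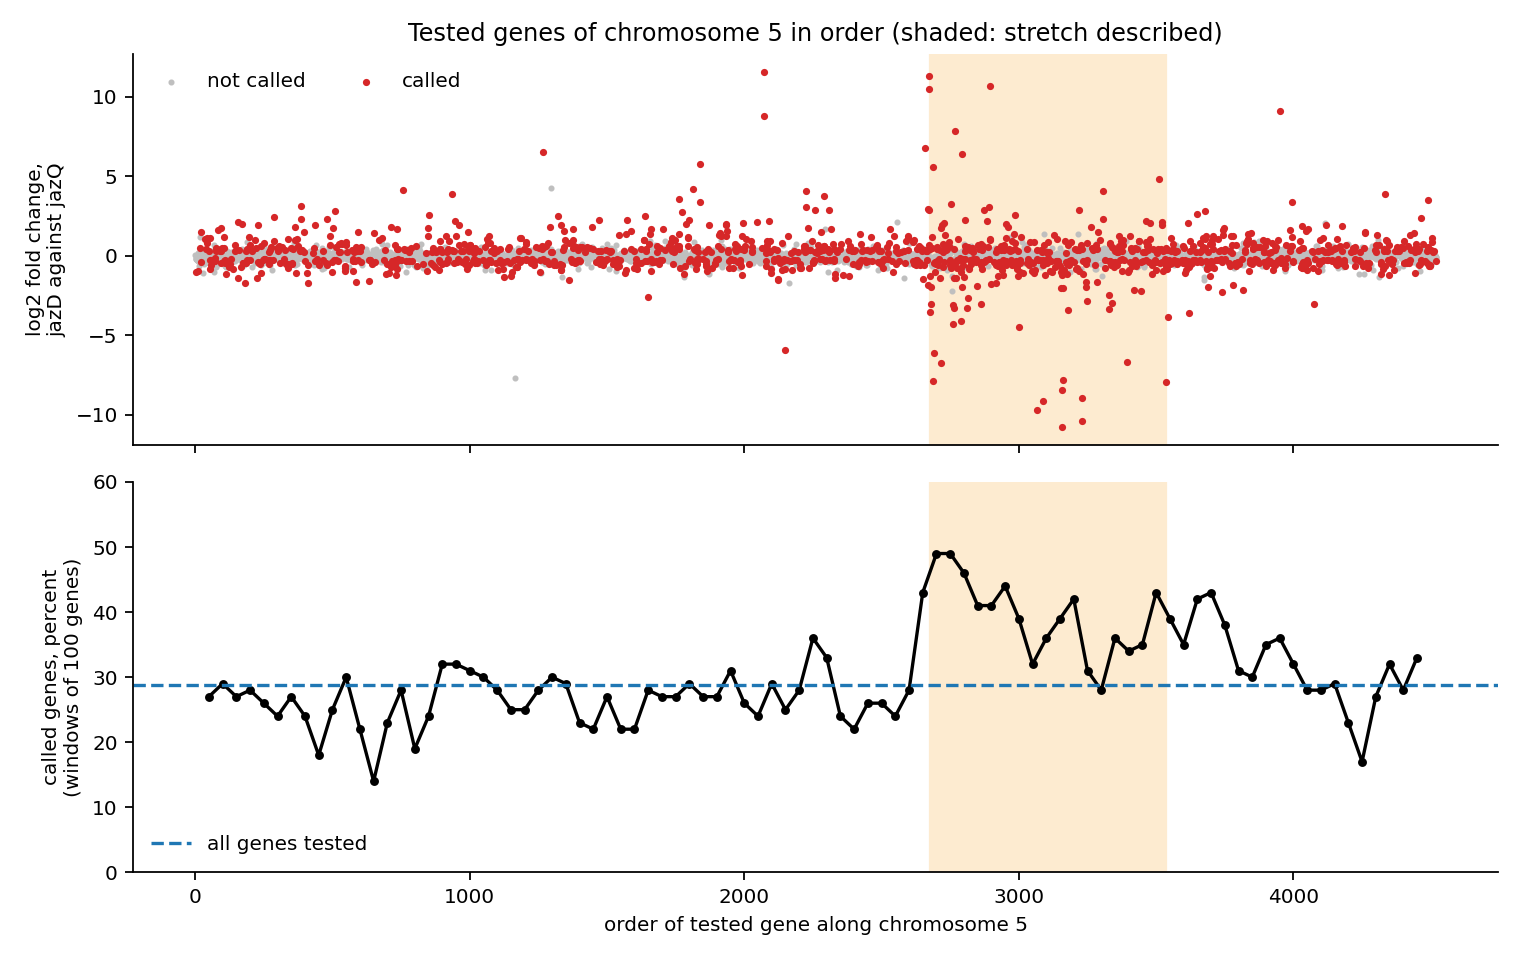
Log2 fold change, jazD against jazQ, of each tested gene of chromosome 5 in order (top; red for called genes) and the percentage called in windows of 100 genes (bottom; dashed line at 28.8% for all genes tested), with the stretch shaded. Genes lower by more than 8-fold gather in the shaded stretch, where window shares reach 49%.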

How the data were processed

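RNA-seq was done on 9 libraries, 3 each of Col-0, jazQ and jazD. The authors deposited expected counts per gene, made with RSEM 1.2.25 on the build TAIR10 per the submitters' processing notes, and a matching table of TPM, per the file headers. The sources used here do not give aligner or strandedness, so reads of overlapping antisense genes cannot be separated. Expected counts were rounded, filtered with filterByExpr (minimum count 10) and tested in edgeR 4.0.16 (R 4.3.3) with TMM scaling and a robust quasi-likelihood fit of all 9 libraries. CPM values are on that scale, and the standard error of a log2 fold change is the one the F statistic implies. The labels call the replicates biological, so p-values measure the spread between pooled samples. Reads carry no molecular identifiers, so counting intervals and limits cover counting error only. The script was tested on simulated data.

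The members and the 35 gene lists were chosen with earlier results of these data known, and the lists and JAZ mutations come from general knowledge. Named are the JAZ genes, 3 members of each further list by smallest p, with the top member of the opposite direction where calls went both ways, and the 5 largest called rises and 5 largest falls whose groups are apart and whose higher mean reaches 10 CPM. Nearly silent genes are counted by chromosome. Genes named otherwise were chosen after their values were seen, as is said for most of them. Exon words of 50 bases were compared within TAIR10.1 to find copies. The alternatives were DESeq2 1.42.0 (size factors and Wald test), limma 3.58.1 (voom, and log2 TPM with a pseudocount of 1 or 0.1), other filters, the replicate number as a block, only the 6 libraries compared, and each library left out.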

Additional observations from a re-analysis of the deposited data

How the results depend on the processing

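The counts of genes higher and lower in jazD stayed within 1.5 times of 2918 and 2678 under all alternatives run, from 2312 to 3405 higher and from 1942 to 3411 lower. A filter at a mean of 5 CPM, which tests fewer genes, left 455 of the 810 genes at least 2-fold higher and 119 of the 294 at least 2-fold lower. On log2(TPM + 1), where the pseudocount shrinks the folds of low genes, 161 were at least 2-fold lower. Leaving out 1 library gave 2347 to 3024 genes higher, 1942 to 2722 lower, 800 to 858 at least 2-fold higher and 257 to 322 at least 2-fold lower. With the replicate number as a block 3405 genes were higher and 3271 lower, 835 and 327 at least 2-fold. What libraries of the same number in jazQ and jazD share is not stated. The correlations of their deviations were 0.222, 0.149 and 0.088, against -0.201 to 0.057 between different numbers of these lines. Each jazQ and jazD library correlated best with its own number among those of the other line. Whether the number marks a shared batch was not tested, and the main fit has no term for it. Under the block 15 expansin and XTH genes were lower and 2 higher, 19 light-harvesting, 3 phenylpropanoid, 2 tryptophan and 2 ascorbate genes were lower, as was 1 each of jasmonate breakdown, sulfate assimilation and flavonoids, 6 clock and 4 touch genes were higher, and no salicylate gene was lower, ALD1 not being called. Of 109 named genes called, 100 were called under every alternative that tested them, and none of the 109 changed sign. Totals of 15370271 to 20730459 counts limit precision most for genes with few counts, such as JAZ4 and JAZ7.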

Other observations

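The genes below are outside the lists, were chosen after their values were seen among the largest changes, and are described by the annotation in the files. The chitinase family gene AT2G43590 measured 8.38, 9.21 and 9.10 CPM in jazQ and 741, 827 and 729 CPM in jazD, a log2 fold change of 6.42 ± 0.10 (adjusted p = 1.77e-13), and the related AT2G43580 rose by 7.08 ± 0.22 (adjusted p = 1.06e-10). AT4G16260, a glycosyl hydrolase, measured 1.33, 1.77 and 2.02 CPM in jazQ and 539, 587 and 527 CPM in jazD, a log2 fold change of 8.30 ± 0.31 (adjusted p = 1.06e-06). AT2G16367, a defensin-like protein, measured 0.0665, 0.177 and 0.0963 CPM in jazQ and 42.5, 44.7 and 36.1 CPM in jazD, and rose by 8.41 ± 0.21 (adjusted p = 8.02e-12). The TAIR10.1 annotation lists AT2G16367 as a transcribed pseudogene instead. These genes were at under 10 CPM in every jazQ library and well above that in every jazD library. AT3G28220, a TRAF-like protein, measured 63.8, 68.1 and 55.9 CPM in jazQ and 4253, 4646 and 4338 CPM in jazD, a log2 fold change of 6.14 ± 0.34 (adjusted p = 1.85e-05).

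Genes outside the chromosome 5 stretch also fell, though the edges of that stretch were set with the results known. AT5G55896, a transposable element gene just past its far end, measured 28.5, 28.8 and 29.1 CPM in jazQ and 1.94, 2.11 and 1.98 CPM in jazD, a log2 fold change of -3.84 ± 0.09 (adjusted p = 5.29e-12). AT5G44410, of the berberine family and just before its near end, measured 10.3, 11.6 and 10.3 CPM in jazQ and 2.54, 3.27 and 3.39 CPM in jazD and fell by 1.81 ± 0.18 (adjusted p = 8.22e-06). Because AT5G55896 and AT5G44410 lie close to the edges, a linked difference in DNA and the JAZ mutations cannot be told apart for them. PATL1, a patellin, measured 1029.7, 739 and 741 CPM in jazQ and 334, 304 and 298 CPM in jazD, a log2 fold change of -1.42 ± 0.16 (adjusted p = 0.000212). BGLU47, a β-glucosidase, measured 10.7, 12.7 and 8.81 CPM in jazQ and 3.57, 4.03 and 2.71 CPM in jazD, and fell by 1.64 ± 0.17 (adjusted p = 1.10e-05). BIP3, a heat shock protein 70 family member, measured 18.8, 14.2 and 17.7 CPM in jazQ and 6.43, 5.67 and 6.94 CPM in jazD, a log2 fold change of -1.41 ± 0.29 (adjusted p = 0.0084).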
